A study of Mus musculus with 31 samples.

Results

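The 10 genes followed here, chosen by gene name, encode hormones that the liver secretes and proteins that bind them: Fgf21, its coreceptor gene Klb, Gdf15, Fst, Inhbe, Inhba, Lect2, Fetub, Ahsg and Enho. They were covered by 12 probes, and all 12 passed the filter on usable spots, of 36059 probes with 23968 gene names tested in all. Each liver came from 1 male C57BL6/J mouse that was fasted for 24 hours and then refed for 18 hours with food and drinking water holding 20% glucose, a challenge that raises glucose flow into the liver. Mice of 2 lines were studied, each with its own WT littermates, to ask which hepatic transcripts depend on the β isoform of the carbohydrate-responsive transcription factor ChREBP and which on ChREBP as a whole. The ChREBPβ-deficient mice (ChREBPbeta_KO, n = 8) lacked exon 1b of Mlxipl, the gene for ChREBP, after Cas9 cutting in one-cell embryos, and were compared with 8 ChREBPbeta_WT mice. The total ChREBP-KO mice (ChREBPtotal_KO, n = 7) were Mlxipl-null and were compared with 8 ChREBPtotal_WT mice. Both deletions were present in every tissue, not in the liver alone. For ChREBPβ, 2 founder lines per strain were derived, and the labels do not say which of them a mouse came from. The age of the mice is not given in the sources used here.

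Hepatokines are proteins that liver cells release into the blood to act on other organs. FGF21 is made in fasting, after sugar intake and under amino acid or mitochondrial stress, and signals through FGF receptors together with β-klotho, the product of Klb. GDF15 is a stress hormone that lowers food intake through a receptor in the hindbrain. Inhba and Inhbe encode the βA and βE subunits of activins, which belong to the TGF-β family, and Fst encodes follistatin, a secreted protein that binds and neutralises activins. LECT2 is a chemotactic protein that binds the MET and TIE1 receptors. Fetuin-A (Ahsg) and fetuin-B (Fetub) are abundant plasma glycoproteins, the former an inhibitor of the insulin receptor in vitro and the latter an inhibitor of the egg-coat protease ovastacin. Enho encodes adropin, a peptide tied to glucose and lipid handling.

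The target gene was measured first as a check on the labels. Mlxipl had 3 probes on the array. At probe A_55_P2119957 (mm9 chr5:135613705-135613764), the log2 intensity lay between 13.89 and 14.30 in the total ChREBP-KO mice with a median of 14.11, and between 15.14 and 15.48 in their WT littermates with a median of 15.25. It lay between 14.40 and 14.84 in the ChREBPβ-deficient mice and between 14.88 and 15.33 in their WT littermates. In both lines every deficient mouse lay below every WT littermate, and the mean decreased by 1.16 on the log2 scale in the total line (SE 0.07, limma adjusted p = 8.05e-13) and by 0.45 in the ChREBPβ line (SE 0.07, limma adjusted p = 0.0152). Some Mlxipl signal therefore remained in both, and whether the probe lies in the deleted part of either allele was not tested. The other 2 Mlxipl probes overlapped between groups in both lines, and of them A_55_P2728555 was called in the total line (-0.59, limma adjusted p = 0.00313). The call of A_55_P2119957 in the ChREBPβ line was lost when each line was fitted alone and under further alternatives given below.

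The livers carried hepatocyte transcripts throughout. All 8 hepatocyte markers were measured, and albumin was the brightest transcript of the list, at a log2 intensity of 18.96, the top value, which quantile normalization makes equal on every array. The summed hepatocyte list lay between 20.73 and 20.92. Its median was 20.88 in total ChREBP-KO mice (20.84 to 20.92) and 20.77 in their WT littermates (20.73 to 20.87). In the ChREBPβ line the medians were 20.80 in deficient mice and 20.81 in WT littermates. The arrays were scanned on 2 days, with mice of all 4 groups on each (day 1 held 3 ChREBPβ-deficient, 4 β-line WT, 4 total ChREBP-KO and 4 total-line WT arrays, and day 2 held 5, 4, 3 and 4). On 4 arrays, those of total-line WT mice 2, 7 and 8 and of total ChREBP-KO mouse 5, the summed exocrine pancreas markers other than Cela1 reached a log2 intensity of 12.68 to 14.30, against 9.70 to 11.27 on the other 27. Only 8 of the 17 pancreatic markers passed the filter, and Cela1, which hepatocytes also express, was the brightest of them. On 3 arrays the summed stellate cell and fibroblast markers other than Ecm1 stood apart, at 14.46 for total ChREBP-KO mouse 1, 13.83 for KO mouse 4 and 13.44 for total-line WT mouse 2, against 11.99 to 12.85 on the other 28. The array of KO mouse 4 also had a median local background of 33, against 15 to 21 on the others, and the fewest usable spots, 34131. In bulk tissue, fewer cells of a type and less RNA per cell cannot be told apart.

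In the total line 6 of the 10 genes differed from WT littermates. Gdf15, Enho, Lect2, Inhbe and Klb were higher in total ChREBP-KO mice and Inhba was lower, while Fgf21, Fst, Fetub and Ahsg were not called. Over all genes tested, 17.3% were called higher, 17.1% lower and 33.9% either way in this comparison (limma with Benjamini-Hochberg adjustment over all probes, threshold 0.05), beside 5 of the 10 higher and 1 lower. The 10 genes were chosen with earlier results of these livers known, so these counts are no independent evidence. The median log2 difference of the 10 genes was 0.22, beside 0.01 for all genes. In ChREBPβ-deficient mice none of the 10 was called, in a comparison in which 0.00417% of all genes were called, a single gene, Mlxipl itself. At an unadjusted p under 0.05 in limma, 3 of the 12 probes passed in that line, beside 1796 of all 36059, or 4.98%. One was the Gdf15 probe and the other two were the overlapping Enho probes. Of all probes, 0.00832% lay higher and 0.0139% lower in every deficient mouse of that line, and none of the 12 did. The plot of each mouse's values shows the spread behind these calls.

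**Figure D1:**
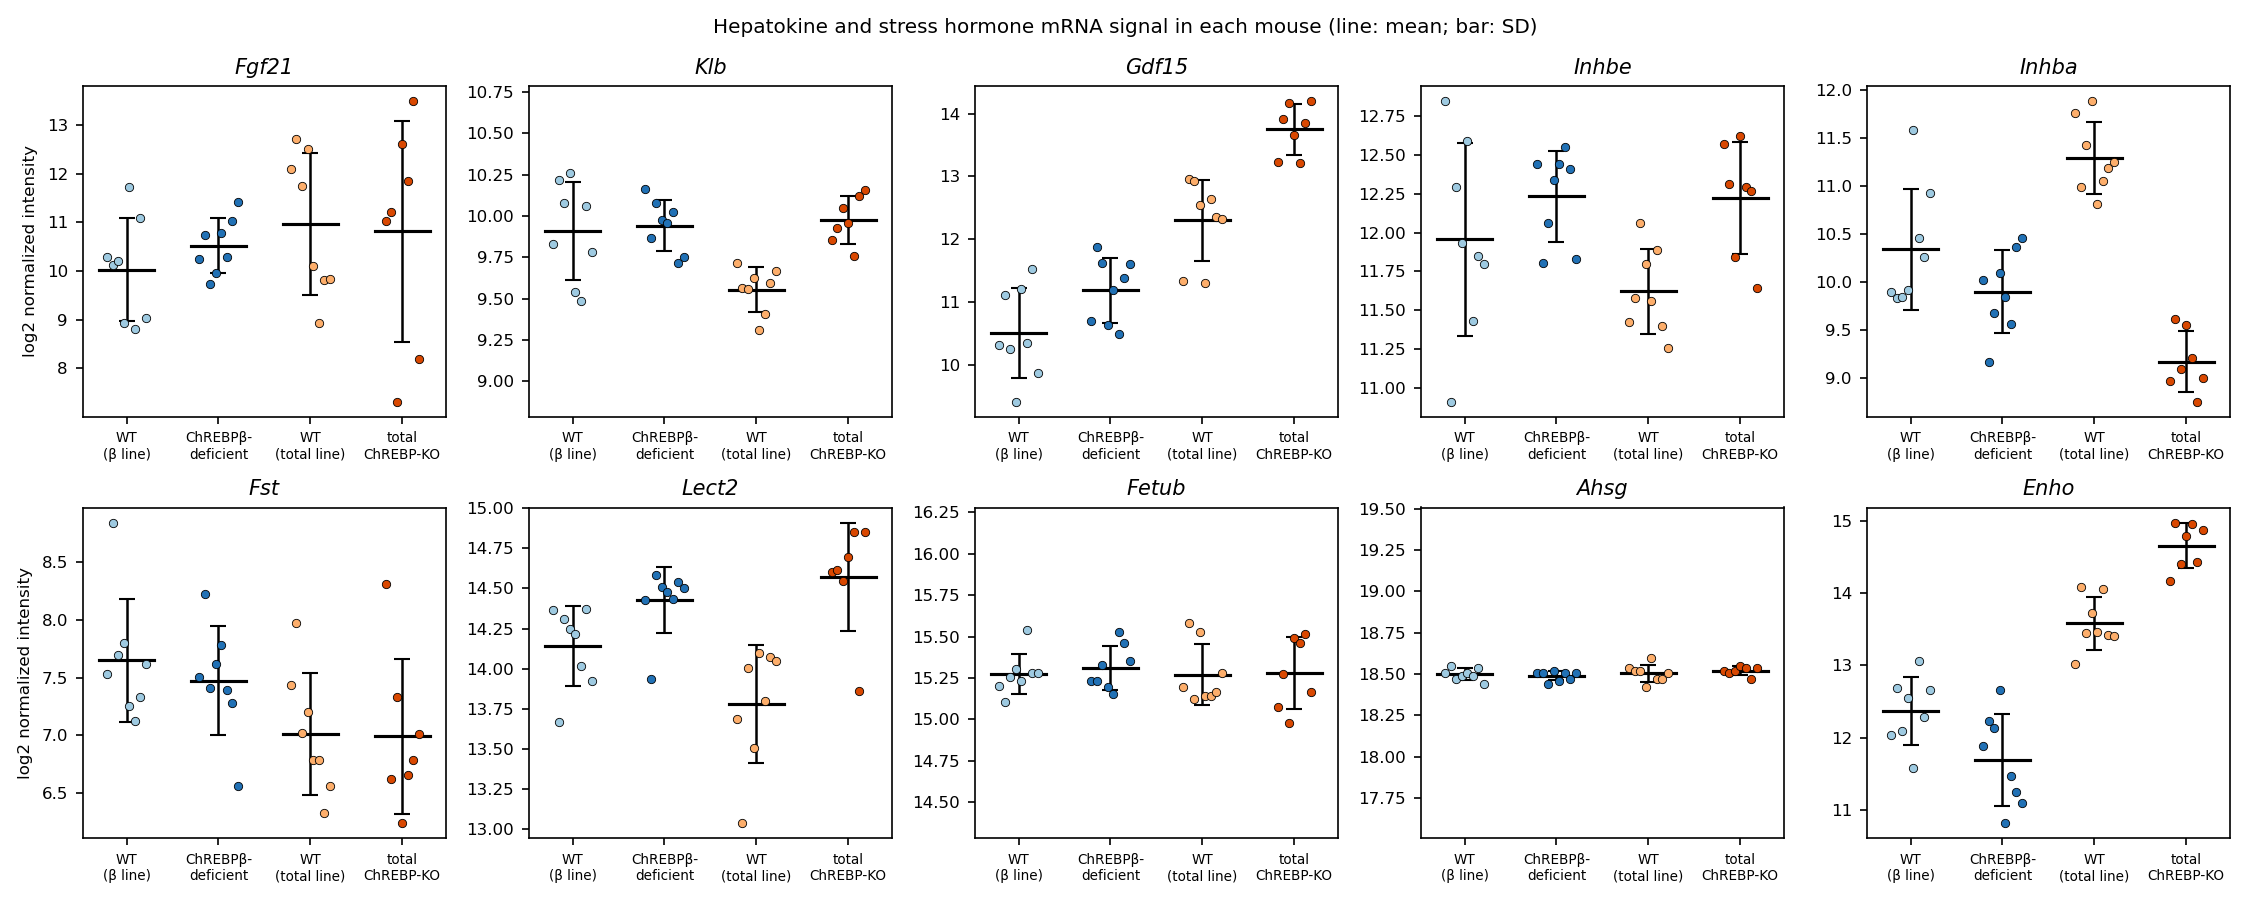
Log2 normalized intensity (y axis) of the 10 genes in each mouse of the 4 groups (x axis), at the probe with the highest mean, with the group mean as a line and the SD as a bar. Each panel has its own y range. Gdf15 and Enho lie higher and Inhba lower in all 7 total ChREBP-KO mice than in their 8 WT littermates, and Fgf21 ranges from 7.32 to 13.49 in total ChREBP-KO mice.

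Fgf21 had the largest spread of the 10 transcripts when the groups were pooled. Its probe (A_52_P235347, mm9 chr7:52869305-52869364, minus strand) ran from 7.32 to 13.49 with a median of 11.22 in total ChREBP-KO mice and from 8.94 to 12.71 with a median of 10.93 in their WT littermates. The first of these ranges is a 72.5-fold difference between 2 mice of one genotype, and the second is 13.6-fold. The first rests on KO mouse 4, whose array had the raised background, and without it the KO range was 8.19 to 13.49, or 39.4-fold. In the ChREBPβ line, Fgf21 ran from 9.74 to 11.41 with a median of 10.51 in deficient mice and from 8.82 to 11.72 with a median of 10.16 in WT littermates. All 4 groups overlapped. The SD left within groups was 1.44, larger than that of 99.9% of the probes tested, where the median was 0.16. The log2 difference was -0.15 in the total line (SE 0.70, 95% confidence interval -1.58 to 1.28, limma adjusted p = 0.901) and 0.50 in the ChREBPβ line (SE 0.68, interval -0.88 to 1.88, limma adjusted p = 1). Both SEs rest on a variance pooled over the 4 groups. The group SDs were 2.27 in total ChREBP-KO, 1.45 in total-line WT, 1.06 in β-line WT and 0.56 in ChREBPβ-deficient mice. The total-line interval may therefore be too narrow and the ChREBPβ-line interval too wide. Exact two-sided permutation tests of the mean within each line gave p = 0.878 in the total line, where the smallest possible p was 0.000311, and p = 0.254 in the ChREBPβ line, where it was 0.000155. Without KO mouse 4 the total-line difference was 0.43 (limma adjusted p = 0.677), and without the 3 arrays with raised stellate markers it was 0.75 (limma adjusted p = 0.47). With single arrays left out, the ChREBPβ-line difference ran from 0.33, without β-line WT mouse 6, to 0.74. With intervals this wide, these data do not show that Fgf21 stayed the same.

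The scan day split Fgf21 in 1 of the groups. In total-line WT mice the 4 livers scanned on day 1 lay between 11.75 and 12.71 with a mean of 12.27, and the 4 scanned on day 2 all lay below these, the lowest at 8.94, with a mean of 9.67. Total ChREBP-KO livers had means of 10.55 on day 1 (n = 4) and 11.18 on day 2 (n = 3), and the 2 lowest, mice 4 and 8, were scanned on different days. The log2 difference between total ChREBP-KO and WT mice was therefore -1.72 among day 1 arrays (limma adjusted p = 0.19) and 1.51 among day 2 arrays (limma adjusted p = 0.288), opposite in sign and past the threshold on neither day. In the ChREBPβ line it was -0.09 on day 1 and 0.94 on day 2. What else differed between the livers of the 2 days was not tested. The Fgf21 spot was marked as not located by the scanner software on 5 arrays, of 3 ChREBPβ-deficient and 2 total-line WT mice, though it was well above background on all 31. On the 26 arrays where it was located, the group means were 10.82 for total ChREBP-KO (n = 7), 11.35 for their WT littermates (n = 6), 10.64 for ChREBPβ-deficient (n = 5) and 10.03 for their WT littermates (n = 8).

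**Figure D2:**
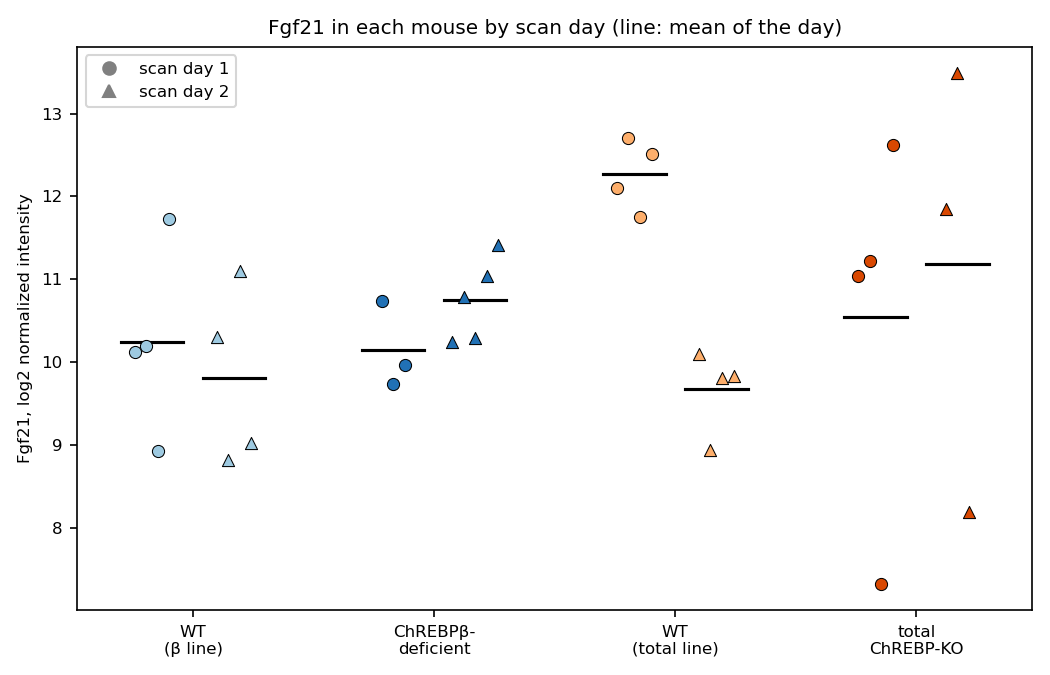
Log2 normalized intensity of Fgf21 (y axis) in each mouse of the 4 groups (x axis), with circles for arrays scanned on day 1, triangles for day 2 and a line at each day's mean. The 4 total-line WT livers of day 1 (mean 12.27) lie above the 4 of day 2 (mean 9.67), while total ChREBP-KO livers range from 7.32 to 13.49.

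The sequence before the Fgf21 start site is shown because it holds the letters of motifs that stress factors and sugar-responsive factors are known to use. In the 250 bases upstream of the RefSeq start (GRCm38.p6 chr7:45615491-45615740, minus strand, written 5′ to 3′), capitals mark the letters of a C/EBP-ATF response element (here TTGCATCA, a match on the reverse strand) and of an E-box (CACGTG). The Inhbe window (GRCm38.p6 chr10:127351849-127352098, minus strand) is set beside it because it holds the same C/EBP-ATF letters. A stretch of the second Gdf15 window (GRCm38.p6 chr8:70632163-70632188, minus strand) shows its E-box.
Fgf21: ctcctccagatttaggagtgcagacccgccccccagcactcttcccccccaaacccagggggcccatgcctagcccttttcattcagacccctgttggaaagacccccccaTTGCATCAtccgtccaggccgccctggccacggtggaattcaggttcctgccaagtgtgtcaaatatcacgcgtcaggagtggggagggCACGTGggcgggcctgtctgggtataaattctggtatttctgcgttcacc
Inhbe: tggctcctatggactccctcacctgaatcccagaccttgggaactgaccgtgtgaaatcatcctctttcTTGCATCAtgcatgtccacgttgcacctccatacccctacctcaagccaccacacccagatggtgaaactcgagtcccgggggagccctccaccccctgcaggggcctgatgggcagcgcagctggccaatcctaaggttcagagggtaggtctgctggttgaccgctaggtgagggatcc
Gdf15: cagggcagggCACGTGtgagcatcca
In Fgf21 the C/EBP-ATF letters begin 139 bases and the E-box 50 bases before the start, in Inhbe the C/EBP-ATF letters begin 181 bases before it, and in Gdf15 the E-box begins 83 bases before the second of 2 annotated starts. Windows were found for 8 of the 10 genes, 10 windows in all, and both strands were searched. The C/EBP-ATF letters occurred in 2 of the 10 windows and in 3.45% of all 32851 windows of this length, and the E-box letters in 2 of the 10 and in 6.02% of all. The carbohydrate response element, the PPAR response element and the HNF1 site were found in none of the 10, and in 0.0974%, 0.0335% and 0.00913% of all windows. A match of letters is a description of the sequence and not evidence that a factor binds there. Nor does a missing match of the letters searched for show that such an element is absent.

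The transcripts that rose and fell with Fgf21 from mouse to mouse were named by their correlation with it over the 31 arrays after each group's mean was subtracted. The 5 gene names with the highest Pearson r were Sars (0.85), the seryl-tRNA synthetase gene, the transcript ENSMUST00000119183 (0.84), AK146139 (0.84), Atf5 (0.82), a stress-induced transcription factor gene, and the sodium-proton exchanger gene Slc9a8 (0.81). Since these were chosen for their r, no test is given. A gene with several probes entered at the probe with its highest r, so genes with more probes were favoured. Spearman's rho was 0.84 for Sars and 0.78 for Atf5. Fgf21 lay farthest from the median of its own group in total ChREBP-KO mice 4 and 8, both on the low side. Without these 2 mice Pearson's r was 0.78 for both genes. High values, such as the 13.49 of KO mouse 7, were kept. With the mean of each scan day in each group also subtracted, r was 0.83 for Sars and 0.78 for Atf5. The points share the array and its normalization. Sars differed from WT littermates by 0.17 in total ChREBP-KO mice (SE 0.08, limma adjusted p = 0.143) and Atf5 by -0.23 (SE 0.13, limma adjusted p = 0.21), so neither was called. AK146139 (-1.52, SE 0.26, limma adjusted p = 3.19e-05) and Slc9a8 (-0.24, SE 0.06, limma adjusted p = 0.00513) were called lower.

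Genes of the integrated stress response, through which ATF4 and its partners switch on amino acid synthesis and stress hormones, lay closest to Fgf21 of the gene lists examined. Their median r with Fgf21 was 0.56 over 21 genes, beside 0.04 over all genes, and 52.4% of them had r above 0.5, beside 4.54% of all. In the lists and over all genes alike, each gene entered at its probe with the highest r. The serine synthesis genes Phgdh (0.78) and Psat1 (0.77), the one-carbon enzyme gene Mthfd2 (0.76), the stress-response cofactor gene Nupr1 (0.74) and Atf4 itself (0.72) were the highest among them after Atf5. At the other end of the list Cebpb (-0.36), Cth (-0.27) and Shmt2 (-0.071) had a negative r. The median r was 0.19 over 22 ChREBP target genes and -0.10 over 20 PPARα target genes. Among the hepatokines, each at its highest-mean probe, r with Fgf21 ran both ways, at 0.52 for Fetub, 0.375 for Inhbe, 0.27 for Inhba, 0.13 for Gdf15, 0.0080 for Ahsg, -0.0034 for Fst, -0.088 for Klb, -0.25 for Enho and -0.355 for Lect2. Without total ChREBP-KO mice 4 and 8 these were, in the same order, 0.40, 0.25, 0.28, 0.33, 0.049, 0.073, 0.020, -0.335 and -0.38. The 2 total ChREBP-KO mice with the lowest Fgf21, mice 4 and 8, held Gdf15 at 14.17 and 14.20, the highest values of that gene in the study.

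**Figure D3:**
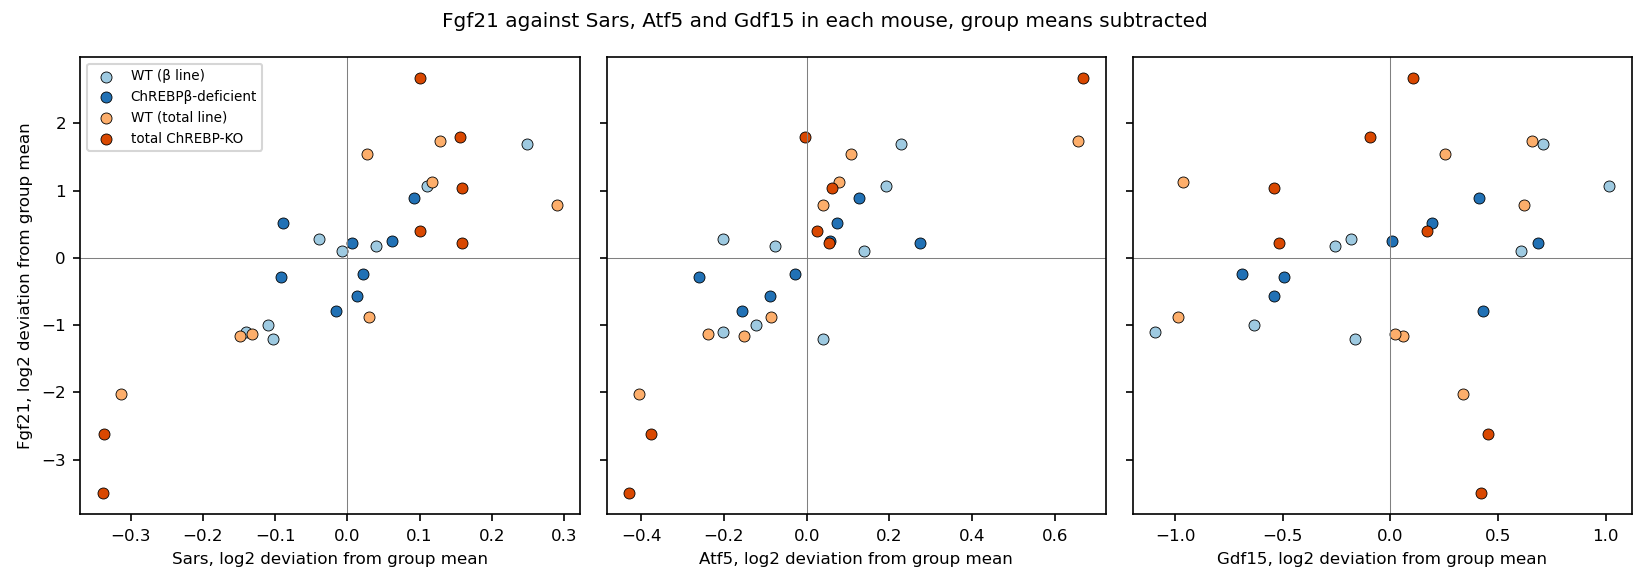
Deviation of Fgf21 from its group mean (y axis, log2) against that of Sars, Atf5 and Gdf15 (x axes, log2) in the 31 mice, coloured by group. Sars and Atf5 rise with Fgf21 (Pearson r of 0.85 and 0.82), and r with Gdf15 is 0.13, or 0.33 without total ChREBP-KO mice 4 and 8.

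Klb, whose product lets liver and other cells bind FGF21, was modestly higher in total ChREBP-KO mice than in their own WT littermates. Its brighter probe (A_51_P464394, mm9 chr5:65774926-65774985) ran from 9.76 to 10.16 with a median of 9.96 in total ChREBP-KO mice and from 9.31 to 9.72 with a median of 9.58 in WT littermates. All 7 KO mice lay above all 8 WT mice, a difference of 0.42 on the log2 scale or 1.34-fold (SE 0.10, limma adjusted p = 0.00149). It was 0.33 on scan day 1 (limma adjusted p = 0.0921) and 0.52 on day 2 (limma adjusted p = 0.0254). Over all probes, 3.26% showed such a complete separation upward and 4.14% downward. The dimmer Klb probe (A_55_P2745433, mm9 chr5:65770402-65770461) differed by 0.16 with overlapping groups (SE 0.08, limma adjusted p = 0.148). The brighter spot was marked as located on 20 of 31 arrays and passed the filter through the ChREBPβ-deficient group, where it was located on 6 of 8. In ChREBPβ-deficient mice the 2 probes differed from WT littermates by 0.03 and -0.09, and neither was called. At the brighter probe both groups of that line averaged near the total ChREBP-KO mice (9.94 and 9.91, against 9.98). The total-line WT mice were lowest, at 9.55.

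Other genes of the FGF21 axis were examined as a list of receptors, the FAP protease and regulators. Of 14 tested, 6 rose and 2 fell without ChREBP, beside 17.3% and 17.1% of all genes, with a median difference of 0.29, beside 0.01 for all. Nr1d1, which encodes the circadian repressor REV-ERBα, was higher by 1.21 (SE 0.25, limma adjusted p = 0.000319), and Ppara, the gene for the nuclear receptor that drives Fgf21 in fasting, by 0.69 at its brighter probe (SE 0.15, limma adjusted p = 0.000809), each with no overlap between groups. Creb3l3, a liver factor that cooperates with PPARα on Fgf21, was higher by 0.37 (SE 0.12, limma adjusted p = 0.0217). Among receptors, Fgfr3 was lower by 0.95 on the log2 scale with no overlap (1.94-fold, limma adjusted p = 5.52e-08), while Fgfr1 was higher by 0.43 (limma adjusted p = 0.0473) and Fgfr4, the main FGF receptor of hepatocytes, by 0.25 at 1 of its 3 probes (limma adjusted p = 0.0347). Dusp6, a feedback phosphatase gene that FGF signalling induces, was higher by 0.57 (limma adjusted p = 0.043), and Dusp4 was lower, with a difference of -0.36 (limma adjusted p = 0.0385). Egr1, an early response gene, differed by 0.35 and Fap by -0.25, and neither was called. On scan day 1 alone, 3 were called higher and 2 lower, beside 9.5% and 10.2% of all genes, and on day 2 alone 2 and 2, beside 7.28% and 8.82%. Without the 4 arrays with raised pancreatic markers 4 were higher and 1 lower, beside 14.3% and 14.7% of all genes, and without the 3 with raised stellate markers 4 and 2, beside 15.3% and 14.8%. None of the 14 was called in ChREBPβ-deficient mice.

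Gdf15 showed the largest rise of the 10 genes in total ChREBP-KO livers. Its probe (A_55_P1960735, mm9 chr8:73153293-73153352, minus strand) ran from 13.21 to 14.20 with a median of 13.85 in total ChREBP-KO mice and from 11.31 to 12.95 with a median of 12.45 in WT littermates. Every KO mouse lay above every WT littermate, and the difference of 1.45 was a 2.73-fold rise (SE 0.29, limma adjusted p = 0.000267). It was 1.30 among arrays of scan day 1 (limma adjusted p = 0.0527) and 1.60 among those of day 2 (limma adjusted p = 0.0112). ChREBPβ-deficient mice ran from 10.49 to 11.87 with a median of 11.28 and their WT littermates from 9.41 to 11.52 with a median of 10.33. These groups overlapped, with 3 of 8 deficient mice above all WT mice, and the difference of 0.68 was not called (SE 0.28, unadjusted p = 0.0207 and adjusted p = 0.989 in limma). The interaction, total minus ChREBPβ effect, was 0.77 (limma adjusted p = 0.213), so a difference between the 2 lines in the Gdf15 response was not shown.

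Genes of the GDF15 receptor, of p53 and of the integrated stress response were set beside it. Of its receptor genes, Gfral and Ret did not pass the filter in liver. Of the 4 genes tested from the receptor and p53 list, 2 were lower without ChREBP and none was higher, beside 17.1% and 17.3% of all genes. These were Plin2, at the brighter of its 2 probes (-0.60, SE 0.12, limma adjusted p = 0.000215), and Trp53 itself (-0.47, SE 0.15, limma adjusted p = 0.0151). Plin2 encodes a coat protein of lipid droplets and was on the list though it is neither a receptor gene nor p53. The integrated stress response list had 8 of 21 genes called higher and 3 called lower, beside 17.3% and 17.1% of all genes, and a median of 0.26. The highest were Ddit3, which encodes the stress factor CHOP known to act on Gdf15 (1.89, SE 0.23, limma adjusted p = 1.7e-07), and Atf3, a further stress factor gene (1.80, SE 0.34, limma adjusted p = 0.000143). Vldlr rose by 1.68 (SE 0.21) and Asns, the asparagine synthetase gene, by 1.51 (SE 0.50), with limma adjusted p of 2.1e-07 and 0.021. Aldh18a1, a proline synthesis gene, was lower (-1.16, limma adjusted p = 0.000264), as was Cebpb (-0.46, limma adjusted p = 0.00249). Atf4 mRNA differed by 0.15 (limma adjusted p = 0.385) and Trib3 by 0.39 (limma adjusted p = 0.143), and neither was called. Without the 4 arrays with raised pancreatic markers, 5 of the 21 were called higher and 2 lower, beside 14.3% and 14.7% of all genes, and without the 3 arrays with raised stellate markers 9 and 2, beside 15.3% and 14.8%. Counted within a scan day, 3 were called higher and 4 lower on day 1, beside 9.5% and 10.2% of all genes, and 7 higher and 1 lower on day 2, beside 7.28% and 8.82%.

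Inhba showed the largest fall. Its probe (A_51_P239750, mm9 chr13:16118634-16118693) ran from 8.75 to 9.62 with a median of 9.09 in total ChREBP-KO mice and from 10.81 to 11.89 with a median of 11.22 in WT littermates. The 2 groups did not touch, and the signal was 4.36-fold lower (log2 difference -2.12, SE 0.22, limma adjusted p = 1.49e-08), with a difference of -2.21 on scan day 1 and -2.09 on day 2. ChREBPβ-deficient mice ran from 9.16 to 10.46 with a median of 9.93, against 9.84 to 11.59 with a median of 10.09 in their WT littermates. That difference of -0.44 was not called (SE 0.22, unadjusted p = 0.0502 and adjusted p = 0.989 in limma), and 3 of 8 deficient mice lay below all WT mice. Without β-line WT mouse 5, at 11.59, it was -0.26 (limma adjusted p = 0.853). The fall was larger in the total line, with an interaction of -1.68 (limma adjusted p = 0.0003). On scan day 1 alone the interaction was -1.56 and not called (limma adjusted p = 0.11), and on day 2 it was -1.75 (limma adjusted p = 0.0026).

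The βE subunit gene moved the other way. Inhbe (A_51_P357735, mm9 chr10:126786719-126786778, minus strand) ran from 11.64 to 12.62 with a median of 12.29 in total ChREBP-KO mice and from 11.25 to 12.06 with a median of 11.57 in WT littermates. In all, 5 of the 7 KO mice lay above all WT mice, and the difference of 0.60 was 1.52-fold (SE 0.20, limma adjusted p = 0.0251). The call was lost on each scan day taken alone (0.62 and 0.54, limma adjusted p = 0.169 and 0.22). Without the 4 arrays with raised pancreatic markers the difference was 0.41 (limma adjusted p = 0.241), without the 3 with raised stellate markers it was 0.60 (limma adjusted p = 0.0601), and the call was also lost without total ChREBP-KO mouse 1 (0.54, limma adjusted p = 0.0569), without KO mouse 5 (0.53, limma adjusted p = 0.059) and without WT mouse 8 (0.55, limma adjusted p = 0.0511). In ChREBPβ-deficient mice Inhbe ran from 11.80 to 12.55, within the WT range of 10.91 to 12.85, and differed by 0.28 (SE 0.20, limma adjusted p = 1), or by 0.13 without β-line WT mouse 2.

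Fst was called in neither line. Its probe (A_51_P381821, mm9 chr13:115244692-115245364, minus strand) ran from 6.24 to 8.31 with a median of 6.78 in total ChREBP-KO mice and from 6.33 to 7.98 with a median of 6.90 in WT littermates, and the difference was -0.02 (95% confidence interval -0.57 to 0.53, limma adjusted p = 0.97). In the ChREBPβ line the difference was -0.18 (interval -0.71 to 0.35, limma adjusted p = 1). Without β-line WT mouse 2 it was -0.0075, and without ChREBPβ-deficient mouse 2 it was -0.29. Of 14 other activin, inhibin and follistatin genes tested, the total line gave 2 higher and 1 lower call, under the background shares. Inhbc, the βC subunit gene that lies beside Inhbe, was higher by 0.45 (SE 0.10, limma adjusted p = 0.000811). Smad2, an activin signal transducer gene, was higher by 0.32 at 1 probe (limma adjusted p = 0.00107) and differed by 0.07 at its brighter one. Fstl1 was called lower at 1 probe (-0.22, limma adjusted p = 0.0242), while its other two probes, the brightest among them, differed by 0.09 and 0.20 and were not called. The βB gene Inhbb (0.03) and the activin receptor genes Acvr1 (0.07), Acvr1b (-0.20), Acvr2a (-0.01) and Acvr2b (0.01) were not called.

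Lect2 was higher in total ChREBP-KO mice. Its probe (A_51_P249909, mm9 chr13:56643950-56644009, minus strand) ran from 13.86 to 14.85 with a median of 14.62 in total ChREBP-KO mice and from 13.04 to 14.10 with a median of 13.90 in WT littermates. Of the 7 KO mice 6 lay above all WT mice and KO mouse 7 lay among them, with a difference of 0.79 or 1.73-fold (SE 0.15, limma adjusted p = 0.000106). The difference was 1.06 on scan day 1 (limma adjusted p = 0.00232) and 0.51 on day 2 (limma adjusted p = 0.0861). Of the ChREBPβ-deficient livers 7 of 8 lay above all 8 WT littermates, from 13.93 to 14.58 with a median of 14.49 against 13.67 to 14.37 with a median of 14.23, yet the difference of 0.29 was not called (SE 0.14, unadjusted p = 0.0508 and adjusted p = 0.989 in limma). The interaction of 0.51 was not called either (limma adjusted p = 0.0928). Of the receptors that LECT2 binds, Tie1 was higher by 0.36 (SE 0.10, limma adjusted p = 0.00573), and Met was higher by 0.35 at its dimmer probe (limma adjusted p = 0.00617) but differed by -0.01 at its brighter one (limma adjusted p = 0.91).

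Of the 10 genes, Ahsg had the smallest spread. Its probe (A_51_P424854, mm9 chr16:22899415-22899474) stayed between 18.42 and 18.59 in all 31 mice, and its SD within groups, 0.04, was undercut by 0.0915% of probes. It lay near the top of the intensity range, where quantile normalization gives every array the same values, so small changes there are hard to see. Ahsg differed by 0.02 in total ChREBP-KO mice (95% confidence interval -0.05 to 0.08, limma adjusted p = 0.759) and by -0.01 in ChREBPβ-deficient mice (interval -0.07 to 0.05, limma adjusted p = 1). Fetub (A_51_P353494, mm9 chr16:22939736-22939795) ran from 14.98 to 15.51 in total ChREBP-KO mice and from 15.13 to 15.58 in WT littermates, with a difference of 0.01 (interval -0.16 to 0.18, limma adjusted p = 0.951). In the ChREBPβ line Fetub differed by 0.04 (interval -0.13 to 0.20, limma adjusted p = 1).

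The Enho differences pointed in opposite directions in the 2 lines, and the difference between the lines was called. Its 2 probes (A_55_P2153517, mm9 chr4:41585245-41585304, and A_51_P497090, mm9 chr4:41585257-41585316, both minus strand) share 48 of their 60 bases and are not independent. At the brighter one, total ChREBP-KO mice ran from 14.18 to 14.98 with a median of 14.79 and WT littermates from 13.03 to 14.09 with a median of 13.46. All 7 KO mice lay above all 8 WT littermates, with a difference of 1.08 or 2.11-fold (SE 0.23, limma adjusted p = 0.000546), and the other probe gave a 2.14-fold rise (SE 0.23, limma adjusted p = 0.00049). ChREBPβ-deficient mice ran from 10.81 to 12.66 with a median of 11.67 and their WT littermates from 11.58 to 13.06 with a median of 12.42. Of the 8 deficient mice 4 lay below all WT mice, and the differences of -0.68 and -0.64 at the 2 probes were not called (unadjusted p = 0.00451 and 0.00782, adjusted p = 0.909 and 0.963 in limma). The interaction was 1.76 and 1.74 (limma adjusted p = 0.000224 and 0.000288). Over all genes, 8.82% had a higher and 9.6% a lower interaction, and of the 10 genes Enho was called higher and Inhba lower.

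In the ChREBPβ line the Enho difference was seen on 1 scan day. On day 1 the ChREBPβ-deficient livers averaged 12.34 (n = 3) and their WT littermates 12.23 (n = 4) at the brighter probe, a difference of 0.11. On day 2 they averaged 11.30 (n = 5) and 12.51 (n = 4), a difference of -1.21, with all 5 deficient livers below all 4 WT livers (10.81 to 11.88 against 12.03 to 13.06). On that day 1.27% of all probes lay lower and 0.982% higher in every deficient liver, and the Enho difference was not called at either probe (limma adjusted p = 0.251 and 0.266). The difference in the total line was 1.02 on day 1 and 1.16 on day 2, called on both days. The interaction at this probe was 0.90 on day 1 (limma adjusted p = 0.223) and 2.37 on day 2 (limma adjusted p = 0.000765).

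**Figure D4:**
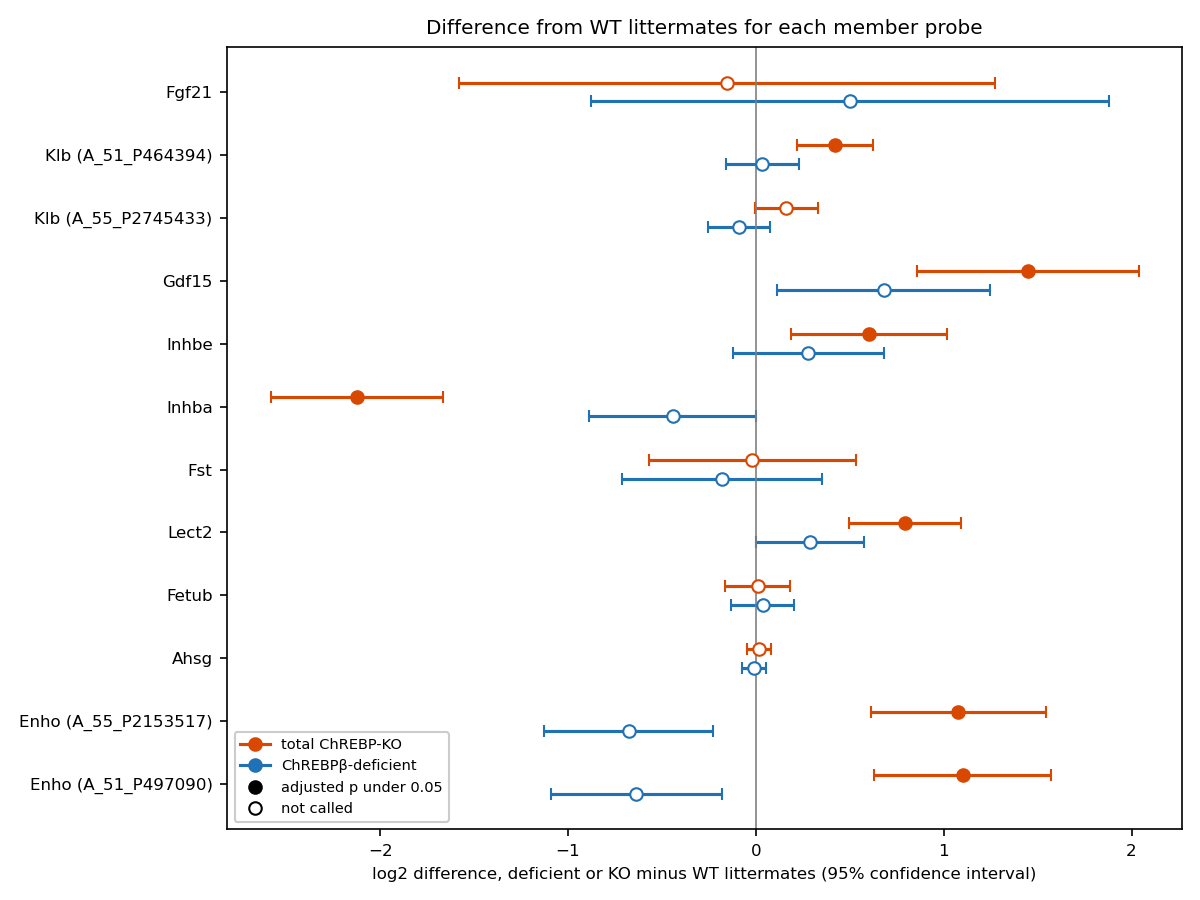
Log2 difference from WT littermates (x axis) with its 95% confidence interval for the 12 probes (y axis), in total ChREBP-KO mice (orange) and ChREBPβ-deficient mice (blue). Filled points passed an adjusted p of 0.05. In the total line 6 probes are filled to the right and Inhba to the left, and in the ChREBPβ line no point is filled.

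The list of partners of LECT2, the fetuins and adropin held 12 tested genes, with 3 higher and 3 lower calls in the total line, beside 17.3% and 17.1% of all genes. Gpr19, a receptor proposed for adropin, was lower (-0.21, SE 0.08, limma adjusted p = 0.0455), and Insr, the insulin receptor gene, differed by 0.03 (limma adjusted p = 0.766). Ctsl, a lysosomal protease gene, was lower at both probes (-0.48 at the brighter, limma adjusted p = 3.45e-05), and Asgr1, a subunit gene of the receptor that clears glycoproteins from plasma, was lower with no overlap (-0.36, limma adjusted p = 1.16e-05). Mep1b, the meprin β gene whose enzyme fetuins inhibit, was higher by 0.93 at its dimmer probe (limma adjusted p = 0.00492) and differed by 0.06 at the brighter one. A list of 25 further liver hormones and secreted proteins had 4 called higher and 4 lower with a median of 0.00, near the shares of all genes. Fgl1, a secreted fibrinogen-like protein gene, was lower (-1.59, SE 0.32, limma adjusted p = 0.000303), as was Orm1, an acute-phase protein gene (-1.07, SE 0.17, limma adjusted p = 1.66e-05). Hamp, the gene of the iron hormone hepcidin, was higher by 0.89 (SE 0.34, limma adjusted p = 0.0457).

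Targets of PPARα and of ChREBP, both of which act on Fgf21, were counted as lists. Of 20 PPARα target genes, 13 were higher and 3 lower without ChREBP, beside 17.3% and 17.1% of all genes, with a median of 0.48, and on scan day 2 alone 5 were higher and 3 lower, beside 7.28% and 8.82% of all genes. The acyl-CoA thioesterase gene Acot1 (1.43, SE 0.25, limma adjusted p = 5.19e-05), the peroxisomal enzyme gene Ehhadh (1.14, SE 0.18, limma adjusted p = 1.14e-05) and the fatty acid hydroxylase genes Cyp4a31 (at its dimmer probe 1.24, SE 0.19, limma adjusted p = 5.67e-06) and, at its brightest probe, Cyp4a10 (1.17, SE 0.15, limma adjusted p = 7.02e-07) rose the most. All 22 ChREBP target genes other than Fgf21 were lower, with a median of -2.86, led, at the probe that differed most, by Rgs16 (-6.37), Pnpla5 (-5.74), Thrsp (-4.82) and Pklr (-3.99). The list was drawn up with results of these livers known and is no independent evidence of its direction. Fgf21, taken as a ChREBP target from knowledge outside these data, differed by -0.15 with the interval of -1.58 to 1.28 given above. In ChREBPβ-deficient mice none of the genes in any of these lists was called.

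**Figure D5:**
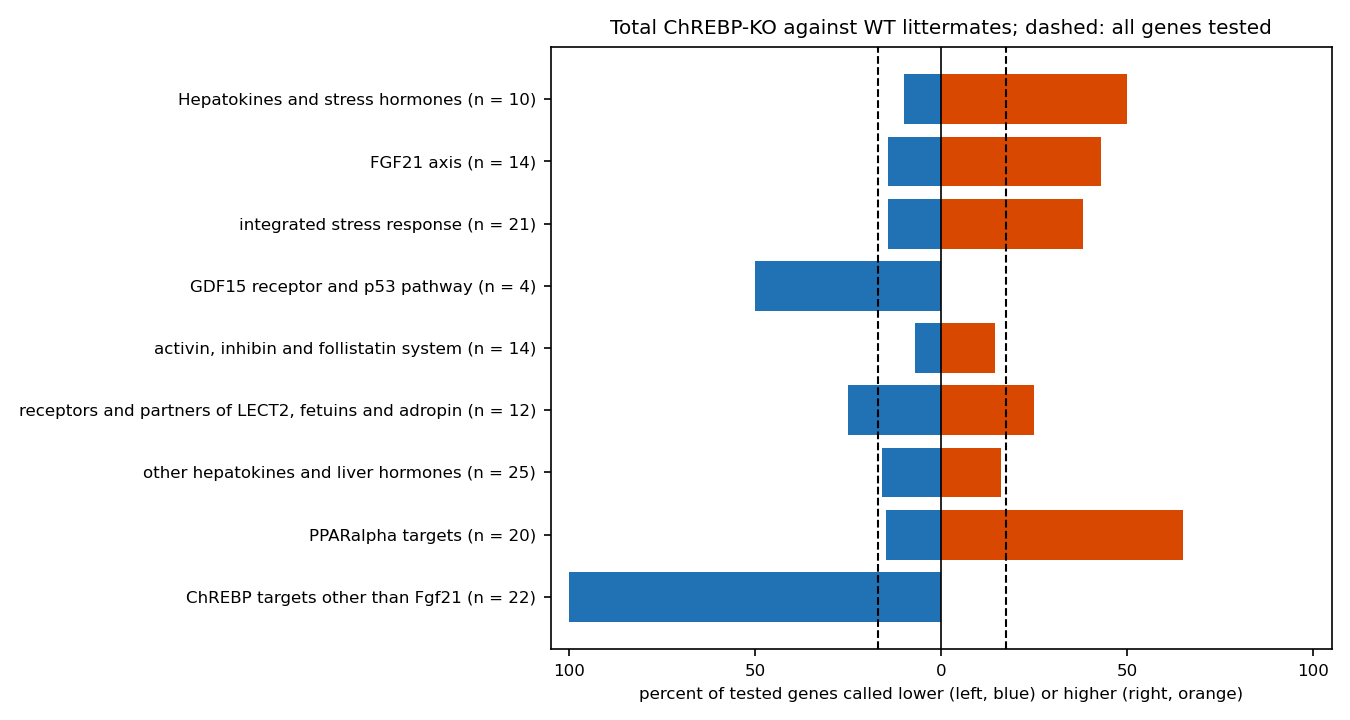
Percent of tested genes called lower (left, blue) and higher (right, orange) in total ChREBP-KO mice for the 10 hepatokine genes and 8 related lists, with dashed lines at the shares of all genes (17.1% lower and 17.3% higher). All 22 ChREBP targets are lower, 13 of 20 PPARα targets are higher, and 5 of the 10 hepatokine genes are higher.

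Markers of other cell types were counted beside these results. Of the tested markers in total ChREBP-KO mice, 0 of 8 Kupffer cell, 0 of 8 endothelial, 1 of 6 cholangiocyte, 3 of 9 stellate cell and fibroblast, 1 of 6 adipocyte and 1 of 5 red blood cell markers were called higher, and none of these was called lower, beside 17.3% of all genes higher and 17.1% lower. The summed stellate list had medians of 14.67 in total ChREBP-KO and 14.44 in WT mice, with Ecm1 its brightest gene, and the summed Kupffer list 13.90 and 13.99, with Cd5l its brightest. The adipocyte list was led by Car3, which hepatocytes also express, and Adipoq and Ucp1 did not pass the filter. For the exocrine pancreas 3 of 8 tested markers were called lower. Without the 4 arrays that carried them, Gdf15, Enho, Lect2, Klb and Inhba kept their calls and Inhbe did not, and the same held without the 3 arrays with raised stellate markers. Without KO mouse 4 all 6 kept their calls. With those 3 arrays left out, 2 of the 9 stellate cell and fibroblast markers were called higher and 1 lower, beside 15.3% and 14.8% of all genes.

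The WT littermates of the 2 lines differed among themselves. Set against β-line WT mice, total-line WT mice had 3.47-fold more Gdf15 signal (log2 difference 1.79, SE 0.28, limma adjusted p = 4.19e-05), with 6 of 8 above all β-line WT mice (11.31 to 12.95 against 9.41 to 11.52). Enho was higher by 1.21 at both probes (SE 0.22, limma adjusted p = 0.000288 and 0.000328), with 7 of 8 total-line WT mice above all β-line WT mice at one probe and all 8 at the other, beside 0.721% of all probes that lay higher in every total-line WT mouse. Inhba was higher by 0.95 (SE 0.22, limma adjusted p = 0.00267), and Klb was lower at its brighter probe (-0.35, SE 0.10, limma adjusted p = 0.0101). Both of these calls were lost on each scan day alone, where Inhba differed by 1.22 and 0.69 (limma adjusted p = 0.0537 and 0.079) and Klb by -0.41 and -0.30 (limma adjusted p = 0.0694 and 0.243). So 3 of the 10 genes were called higher and 1 lower, in a comparison where 9.93% of all genes were called higher and 11.4% lower. Fgf21 differed by 0.94 (SE 0.68, limma adjusted p = 0.364), with 2.03 on scan day 1 and -0.14 on day 2, Fst by -0.64 (SE 0.26, limma adjusted p = 0.089) and Lect2 by -0.36 (SE 0.14, limma adjusted p = 0.0778), and none of these was called. Under 3 of 46 alternatives each, Fst and Lect2 were called. In the same comparison 3 of 5 red blood cell markers were called higher, with medians of the summed list at 17.15 and 16.20 and Hba-a1 as the brightest, and their part in the result was not tested. The line, its breeding and any other difference between these 2 sets of mice cannot be told apart.

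The WT contrast shares mice with the others, so its values are set beside them and no more is drawn from it. For Gdf15 the group means ran from 10.50 in β-line WT and 11.18 in ChREBPβ-deficient mice to 12.30 in total-line WT and 13.75 in total ChREBP-KO mice, and every total ChREBP-KO mouse lay above every mouse of the other 3 groups. For Enho at its brighter probe the order was 11.69 in ChREBPβ-deficient, 12.37 in β-line WT, 13.58 in total-line WT and 14.66 in total ChREBP-KO mice. For Inhba it was 9.17 in total ChREBP-KO, 9.90 in ChREBPβ-deficient, 10.34 in β-line WT and 11.30 in total-line WT mice. For Klb at its brighter probe it was 9.55 in total-line WT, 9.91 in β-line WT, 9.94 in ChREBPβ-deficient and 9.98 in total ChREBP-KO mice. In each order the ChREBPβ-deficient mice and their WT littermates were neighbours that were not called different.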

How the data were processed

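RNA from 31 livers was labelled with Cy3 and hybridised to one-colour Agilent 60-mer arrays, 1 array per mouse, on 15 slides scanned on 2 days. Per the file headers, the authors scanned and extracted spot intensity values (linear, build mm9) with Feature Extraction 10.10.1.1. They also deposited quantile-normalized log2 values, read here as an alternative (correlation 0.999995 with the values used, over 36057 probes). As in the authors' filter, a spot was usable where the software located it and called it positive and brighter than background, and it was kept if usable on 26 arrays or more, or on 6 within a group (38721 of 59305). Their median intensity was log2-transformed and quantile-normalized, replicate spots were reduced to the median, and limma 3.58.1 in R 4.3.3 was fitted over the 4 groups (lmFit, contrasts.fit, eBayes), with Benjamini-Hochberg adjustment over 36059 probes and a threshold of 0.05. A gene was called when 1 of its probes passed. No kept spot was saturated. The number of arrays limits the precision, and p-values measure the spread between mice. The fit was tested on simulated data, and the outcome of that test is not given here.

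All probes of the 10 genes are named, with the highest-mean probe where 1 value is given. From each related list the 4 called genes that differed most in the total line and known regulators or receptors are named, except for some genes that are not reported here. Aldh18a1 and the stress genes named by their correlation with Fgf21, were chosen after their values were seen. The members and all lists were chosen with earlier results of these data known. Sequences are RefSeq upstream windows (GRCm38.p6), and exons were not assigned to the mm9 probe positions. Alternatives covered scaling, background, filter, blocks and each array left out. Motifs were searched on both strands. Within-day fits and the fits without the 4 pancreatic-marker arrays and without the 3 arrays with raised stellate markers were added after seeing the data.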

Additional observations from a re-analysis of the deposited data

Results flagged for a closer look

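Inhba and Enho were set apart because the effect of the deletion differed between the lines by the test of the difference itself. The former had a total minus ChREBPβ difference of -1.68, and the latter had 1.76 and 1.74 at its 2 overlapping probes.

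In 4 cases a single mouse lay far from the rest of its group, judged by the gap to the nearest mouse over the range of the group, among 48 combinations of probe and group. About 1 in 20 groups is set apart by chance alone. ChREBPbeta_WT mouse 2 had Fst at 8.84, with the next mouse at 7.80. ChREBPbeta_KO mouse 2 had Lect2 at 13.93, with the next at 14.43. ChREBPtotal_KO mouse 7 had Lect2 at 13.86, with the next at 14.54. ChREBPbeta_WT mouse 6 had Fetub at 15.54, with the next at 15.30.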

How the results depend on the processing

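In the total line, Inhba and both Enho probes were called under every alternative that could be fitted (47 and 48), Gdf15 and Lect2 under 47 of 48, Klb under 45 of 47 and Inhbe under 41 of 48. Klb, at 0.42, was lost on day 1 alone and where a fold of at least 1.5 was also required. In the ChREBPβ line none of the 10 genes was called under any of 48. The single main call in that line, Mlxipl, was lost with slide as a fixed block and with the replicate block. Fitting each line alone lost it too, as did each scan day alone and a required fold of at least 1.5. So did leaving out the pancreatic-marker arrays or the raised stellate-marker arrays. Keeping only spots usable on all arrays, which removed Fgf21, Inhba, Klb and Ahsg, left 1 gene called for the interaction and 2 between WT littermates, beside 22.3% and 22.9% of all genes. With slide as a fixed block 2 were called between WT littermates, beside 7.71%. Scan day 1 alone gave 3 in the total line, 0 for the interaction and 2 between WT littermates, beside 19.5%, 5.34% and 8.26% of all genes. Each line fitted alone gives no interaction and no comparison of WT littermates.

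Fgf21 reversed to -0.094 in the ChREBPβ line on day 1, and on day 2 to 1.51 in the total line, 0.57 for the interaction and -0.14 between WT littermates. Without the 3 arrays with raised stellate markers it was 0.75 in the total line and 0.25 for the interaction. Leaving out single arrays, its total-line difference ran from -0.60 to 0.43, positive without total-line WT mouse 1, 2 or 4 or KO mouse 4 or 8. The cause of these changes was not tested.

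The other reversals were of differences that were not called. With the processed signal, Fetub was -0.026 (total), -0.034 (β), 0.0089 (interaction) and 0.0021 (WT), and Ahsg -0.020 (total). With 75th percentile scaling of the median signal, Fetub was -0.027 (total), -0.038 (β) and 0.010 (interaction), Ahsg -0.030 (total) and -0.00021 (interaction), and Fst 0.0014 (total). The deposited values gave Fetub 0.034 (interaction) and 0.0074 (WT). The fixed slide block gave Fetub -0.029 (total), -0.050 (β) and 0.021 (interaction), Fst 0.0093 (β) and -0.045 (interaction), and Ahsg -0.0041 (WT). Day 1 gave Fetub -0.15 (total) and 0.13 (WT), Klb -0.051 (β), Enho 0.11 and 0.14 (β), Fst -0.14 (interaction) and Ahsg -0.0057 (WT). Day 2 gave Fst 0.20 (total) and Fetub 0.18 (interaction), and without the pancreatic-marker arrays Fst was 0.072 (total). Without the raised stellate-marker arrays Fst was -0.034 and Fetub 0.12 (both interaction). Over single arrays left out, Fst ran from -0.24 to 0.12 (total) and -0.060 to 0.30 (interaction), Fetub from -0.029 to 0.060 (total), -0.066 to 0.023 (interaction) and -0.049 to 0.034 (WT), Klb from -0.026 to 0.085 (β) and Ahsg from -0.0072 to 0.018 (WT).

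The replicate block called 6 genes in the total line, 0 in the ChREBPβ line and 2 for the interaction, beside 32.3%, 0% and 18.0% of all genes, changed no call and gave Fetub -0.011 in the total line. The labels do not say that a number marks a shared litter or batch. Deviations of same-numbered mice correlated at -0.22 to 0.24 in the total line (2 of 7 pairs above 0.1, own number best in 1) and at -0.16 to 0.53 in the ChREBPβ line (6 of 8 above 0.1, own number best in 4), so the numbers were not used as pairs. Klb was called for the interaction under 9 of 46 alternatives, and Lect2 under 1 of 47, without total ChREBP-KO mouse 7 (0.62, limma adjusted p = 0.0191). Between WT littermates Fst was called on day 2 alone (-0.79, limma adjusted p = 0.0362), without the raised stellate-marker arrays (-0.78, 0.0133) and without total-line WT mouse 2 (-0.78, 0.0347), and Lect2 with the processed signal (-0.40, 0.0486), without β-line WT mouse 2 (-0.43, 0.0396) and without total ChREBP-KO mouse 7 (-0.36, 0.0452).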
